A study of Homo sapiens with 6 samples.

Results

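The entries described here are simple repeats with a longer unit of low to middle GC content, read in RNA bound to chromatin of H9 cells, an established human embryonic stem cell line. A simple repeat is an array in which a short unit stands many times head to tail, and the count table names it by that unit in brackets followed by n. Members were chosen by name alone: the unit had 5 or more bases, and its share of G plus C was above 0 and below 60%. By this rule 9976 of 15641 entries of the table were members, out of 14298 simple repeats. The 3 naive libraries came from cells whose treatment label is naive, and the 3 primed libraries from cells labelled primed. All 6 libraries share the H9 line, one chromatin extraction and one directional library kit, and the labels give the same RSeT growth protocol, a naive-state medium, for all of them, so the primed state rests on the treatment label. Separate cultures are not mentioned in the labels; p-values thus reflect the spread of these 6 libraries, which may be technical alone. The table holds repeat names and no marker genes. Among repeat families tied to pluripotent states, chosen after their values were seen, HERVK-int, the internal part of an endogenous retrovirus active in naive cells, was higher in the libraries labelled naive (log2 3.62 ± 0.30, SE; edgeR adjusted p = 7.88e-05), as was its promoter LTR5_Hs (1.59 ± 0.21; edgeR adjusted p = 0.00443). HERVH-int, of a retrovirus active in human pluripotent cells, was higher too (1.14 ± 0.20; edgeR adjusted p = 0.0106), with its promoter LTR7 (0.87; edgeR adjusted p = 0.0156), while LTR7Y (0.56), LTR7B (0.01) and LTR7C (-0.31) did not pass. HERVH-int is not read here as a mark of either state, and whether these families bear out the treatment labels was not tested.

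Simple repeats lie mostly in introns and between genes, and some of them in exons, where an array whose unit length is a multiple of 3 can code for a run of repeated amino acids. RNA held on chromatin is rich in nascent transcripts, which still carry their introns. A-rich arrays often grew from the tails of retrotransposons such as Alu and L1. Some members are known by name in other settings. Units of the GGAAT type build human satellite II and III near centromeres, and satellite III gives long nuclear RNAs in heat-stressed cells. The TTAGGG unit builds telomeres, and its transcripts are known as TERRA. Expanded ATTCT and TTTCA units cause inherited ataxia and epilepsy, and units of the AAAAG and AAAGG kind lie at the RFC1 ataxia locus.

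One tandem sequence can be named in several ways, because its unit can be read from any start base and on either strand. Such names form a unit class here. Each name is a separate row, and the sources used here do not say which genomic places a row counts. The 9976 members fell into 2517 classes, and 85 members had a unit that is itself a whole multiple of a shorter one, such as (GAGAGA)n and (TGATGA)n. The sequences below show 3 units in a row of the members on which the results turn, as their names define them, written 5′ to 3′ with G and C in capitals, so that the GC share and the shared frame can be seen. Beside each but 2 stands its fitted log2 change, naive minus primed, so that values above 0 are higher in naive cells; which of them passed the test is given further on. The first 5 read the satellite unit in the GGAAT orientation and the next 5 read its reverse complement, the ATTCC orientation.
(GGAAT)n, with a log2 change of 1.47: GGaatGGaatGGaat
(GAATG)n, with a log2 change of 1.33: GaatGGaatGGaatG
(AATGG)n, with a log2 change of 1.32: aatGGaatGGaatGG
(ATGGA)n, with a log2 change of 1.18: atGGaatGGaatGGa
(TGGAA)n, with a log2 change of 0.75: tGGaatGGaatGGaa
(ATTCC)n, with a log2 change of -0.73: attCCattCCattCC
(TTCCA)n, with a log2 change of 0.90: ttCCattCCattCCa
(TCCAT)n, with a log2 change of 0.28: tCCattCCattCCat
(CCATT)n, with a log2 change of 0.15: CCattCCattCCatt
(CATTC)n, with a log2 change of -0.17: CattCCattCCattC
The next 6 are the called names of the AGGATG class and the 4 after them those of the AAGAGG class, the classes with most calls among units of 50% GC.
(CTCATC)n, with a log2 change of -2.05: CtCatCCtCatCCtCatC
(ATGAGG)n, with a log2 change of -1.98: atGaGGatGaGGatGaGG
(GAGGAT)n, with a log2 change of -1.80: GaGGatGaGGatGaGGat
(CCTCAT)n, with a log2 change of -1.61: CCtCatCCtCatCCtCat
(TCATCC)n, with a log2 change of -1.47: tCatCCtCatCCtCatCC
(TGAGGA)n, with a log2 change of -1.16: tGaGGatGaGGatGaGGa
(GAAGAG)n, with a log2 change of -2.71: GaaGaGGaaGaGGaaGaG
(CTTCCT)n, with a log2 change of -1.33: CttCCtCttCCtCttCCt
(CCTCTT)n, with a log2 change of -1.29: CCtCttCCtCttCCtCtt
(TCTTCC)n, with a log2 change of -0.75: tCttCCtCttCCtCttCC
The last set shows single members named below for the size of their change or for their abundance.
(AGCAGT)n, with a log2 change of -1.85: aGCaGtaGCaGtaGCaGt
(TTGAAGACA)n, with a log2 change of -2.47: ttGaaGaCattGaaGaCattGaaGaCa
(GAGAAGCA)n, with a log2 change of -2.31: GaGaaGCaGaGaaGCaGaGaaGCa
(GCATTGG)n, with a log2 change of -2.10: GCattGGGCattGGGCattGG
(CTTTTA)n, with a log2 change of 3.02: CttttaCttttaCtttta
(CACTTAT)n, with 1 count in all primed libraries together: CaCttatCaCttatCaCttat
(TCTAATAA)n, with 1 count in all primed libraries together: tCtaataatCtaataatCtaataa
(GAGAGA)n, with a log2 change of 1.04: GaGaGaGaGaGaGaGaGa
(CCTAAC)n, with a log2 change of -0.04: CCtaaCCCtaaCCCtaaC

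Values of single libraries are given in the order of the replicate numbers. Library totals lay between 9748202 and 17791046 counts in the naive state and between 118793 and 8106871 in the primed state. Primed library 2 was by far the shallowest, and 3 counts in it stand for 25.3 CPM (counts scaled to a common library total). Alpha satellite, the repeat of human centromeres, held 25.3% to 42.9% of naive counts and 0.221% to 0.625% of primed counts, and ribosomal RNA ranged from 0.169% to 6.08% and from 4.04% to 17.7%, with its lowest share in naive library 3 and its highest in primed library 1. These 2 shares enter every share of a total given here, and values with both left out are given below.

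Members took a small and lower share of all counts in the naive state. They held 0.567%, 0.369% and 0.514% of all counts across the naive and 0.949%, 0.881% and 0.819% across the primed libraries. The groups did not overlap. The means were 0.484% ± 0.103 and 0.883% ± 0.0647 (SD, n = 3). The 95% Wilson interval of the shallow primed library 2 was 0.830% to 0.936%, from 1047 counts, and covers nothing beyond counting error, as these reads carry no molecular identifiers. With alpha satellite and ribosomal RNA left out of the total, the shares were 0.776% ± 0.0559 and 0.992% ± 0.144 (SD, n = 3). Of simple repeat counts alone, members took 15.1% ± 2.17 (naive) against 14.2% ± 1.73 (primed) (SD, n = 3), and these groups overlapped.

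Most members were rare. At least 1 count was seen for 5737 of the 9976 members, and 6979 had fewer than 10 counts over the 6 libraries. The low-count filter kept 889 members, which held 80.4% of member counts, and each of these was tested in one fit with all 3219 entries that passed. Among them 21 were higher and 79 lower in naive cells, and 789 did not pass (edgeR, with p-values adjusted over all entries by Benjamini-Hochberg and called under 0.05). Over all entries tested, 4.94% were called higher and 7.77% lower. The corresponding shares of members were 2.36% and 8.89%, so the share called lower was near that of all entries. The median log2 change of tested members was -0.18, against -0.0046 for all entries tested. That background mixes unlike parts. Named repeats had 10.4% higher and 1.19% lower, with a median of 0.21. Simple repeats that are not members had 0.66% higher and 14.6% lower, with a median of -0.50. Members lay between these, so a lean toward lower values was not particular to them.

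The balance of calls depended on the scaling. TMM scaling, used for the values above, assumes that most entries do not change. With library size as the only scaling, 11 members were higher and 290 lower, and the median of all entries moved to -0.61. With the fit restricted to simple repeats, 66 members were higher and 64 lower, and the median of members was 0.24. DESeq2 called 3 higher and 41 lower. With alpha satellite and ribosomal RNA left out of the fit, 27 of 984 members were higher and 93 lower, and the units of 50% to below 60% GC had 46 of 236 lower.

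The calls also rested on primed library 1. Without it, edgeR called 0 members higher and 2 lower, while 112 passed at an unadjusted p under 0.05. The 2 were (GAAGAG)n and (AGCAGT)n. All 79 lower and all 21 higher members kept the sign of their change in that fit, with medians of -1.09 and 1.70 in place of -1.69 and 1.94. Among the 79 lower members, 76 were higher in primed library 1 than in primed library 3, by a median ratio of 1.91, while primed library 3 also lay above all 3 naive libraries for each of the 79. Primed library 2 did so for 49 of the 79, lay below all 3 naive libraries for 19 and had 0 counts for 17. For members called higher, primed libraries 1, 2 and 3 each lay below all naive libraries for all 21, though 18 of them had 0 counts in primed library 2, where 1 count stands for 5.59 TMM-scaled CPM. The lower and higher members were picked by calls from these same libraries, and 11 of the 21 reached the low-count filter in the naive libraries only. Their kept signs and separation are thus a description. The groups overlapped for 30 of the called members (21 higher and 79 lower). Over all entries called (159 higher and 250 lower), they overlapped for 103. Without naive library 1, 153 members were lower, and without naive library 2 the count fell to 44, with 10 higher. Leaving out the shallow primed library 2 gave 27 higher and 103 lower.

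**Figure D1:**
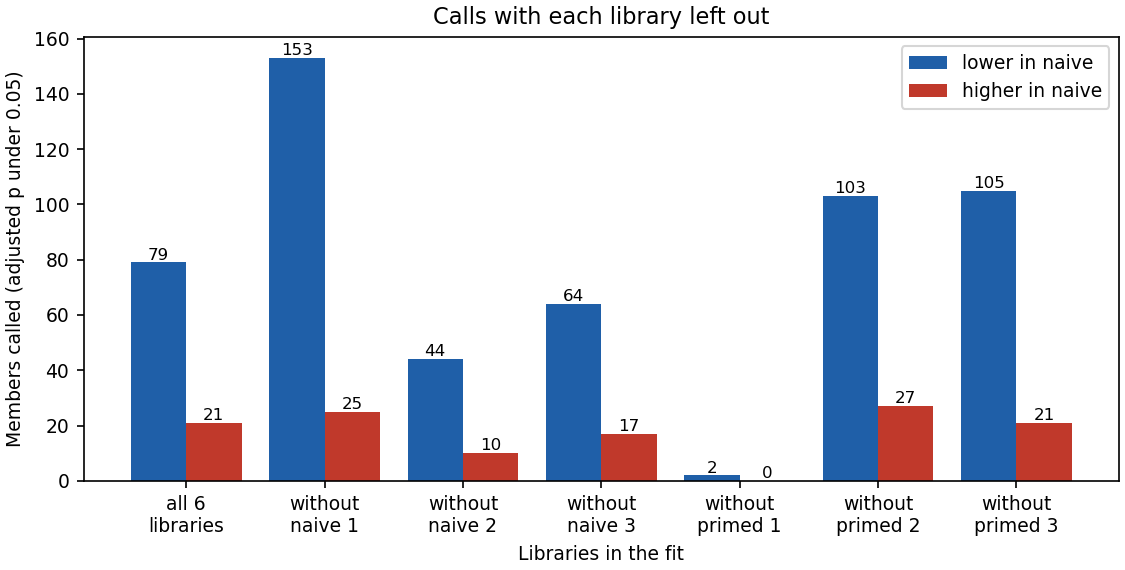
Bars count the members called lower and higher in naive cells (adjusted p under 0.05) in the fit with all 6 libraries and in the fits with 1 library left out. The 79 lower and 21 higher calls of the full fit became 2 and 0 without primed library 1, and 103 and 27 without the shallow primed library 2.

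**Figure D2:**
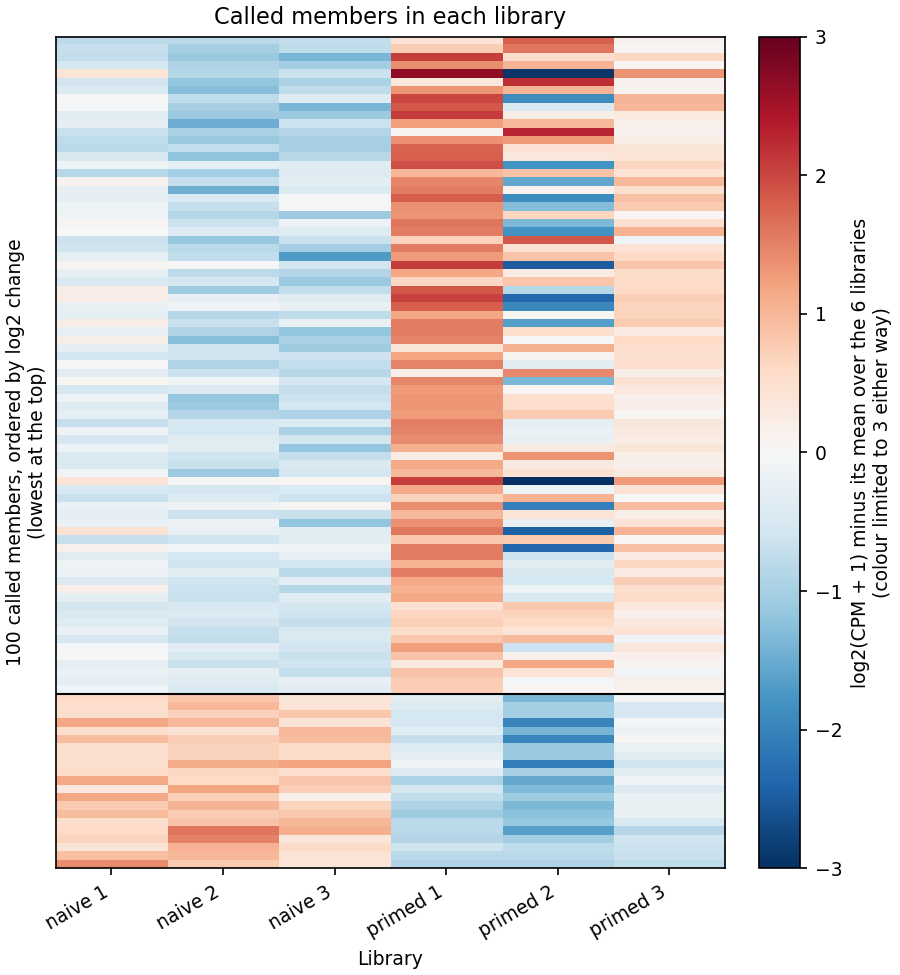
Each row is 1 of the 100 called members and each column a library, and the colour gives log2(CPM + 1) less its mean over the 6 libraries. Above the line lie the 79 members lower in naive cells, with the deepest red mostly in primed library 1 and a mixed primed library 2, and below it the 21 higher members, with all 3 naive libraries above all 3 primed ones.

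By GC share, the calls toward lower values gathered in the units of 50% GC and above. In the bin from 50% to below 60%, 40 of 216 tested members were lower and 1 was higher, and the median log2 change was -0.67. In the bins from above 0 to below 20%, from 20% to below 30%, from 30% to below 40% and from 40% to below 50%, the numbers lower were 12 of 285, 7 of 151, 13 of 134 and 7 of 103, and those higher were 8, 4, 3 and 5. Their medians were -0.11, -0.08, -0.15 and -0.01. The shares lower were 18.5% in the bin from 50% to below 60% and 4.21% to 9.70% in the others, against 7.77% of all entries tested. Those higher were 0.463% and 2.24% to 4.85%, against 4.94%. The step between bins thus lay at 50% GC, with no steady slope below it. Of the 216 members of the top bin, 168 had 6 bases and thus exactly 50% GC. The median of the top bin was below that of the lowest bin by between 0.26 and 0.83 on the log2 scale in the 6 fits without 1 library, with the smallest gap without primed library 1. Without that library, the top bin had 2 of 250 lower and a median of -0.33, and the other bins 0 called by edgeR. The top bin also had the largest excess of primed library 1 over primed library 3, a median log2 ratio of 0.44 against -0.03 to 0.25 in the other bins, and the part of this in the result was not tested. The gap was gone when all 5737 members with a count were fitted with no filter (0.00683), where most members hold few counts.

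Longer simple repeats outside the rule lay on either side. Units without G or C had 3 of 155 higher and 2 lower with a median of 0.02, while units with a GC share of 60% or more had 3 of 632 higher and 118 lower with a median of -0.72. Just inside the rule, units of 57.1% GC, all of 7 bases, had 5 of 42 lower and a median of -0.42. Just outside it, units of exactly 60% GC, whose lengths are multiples of 5, had 5 of 58 lower and a median of -0.28. Their 8.62% lower was near the 7.77% of all entries tested. GC share and unit length thus change together at this edge. Units of 4 bases with the same GC limits had 1 of 127 higher, 2 lower and a median of 0.04.

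The filter itself bears on these counts. By edgeR's rule an entry had to reach 1.12 CPM in at least 3 libraries. Only the naive libraries reached it for 15 members, of which 11 were called higher, and only the primed libraries for 24, of which 8 were called lower; these had to differ to be tested at all. Among the 281 members that reached it in all 6 libraries, 3 were higher and 43 lower, with a median of -0.31.

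**Figure D3:**
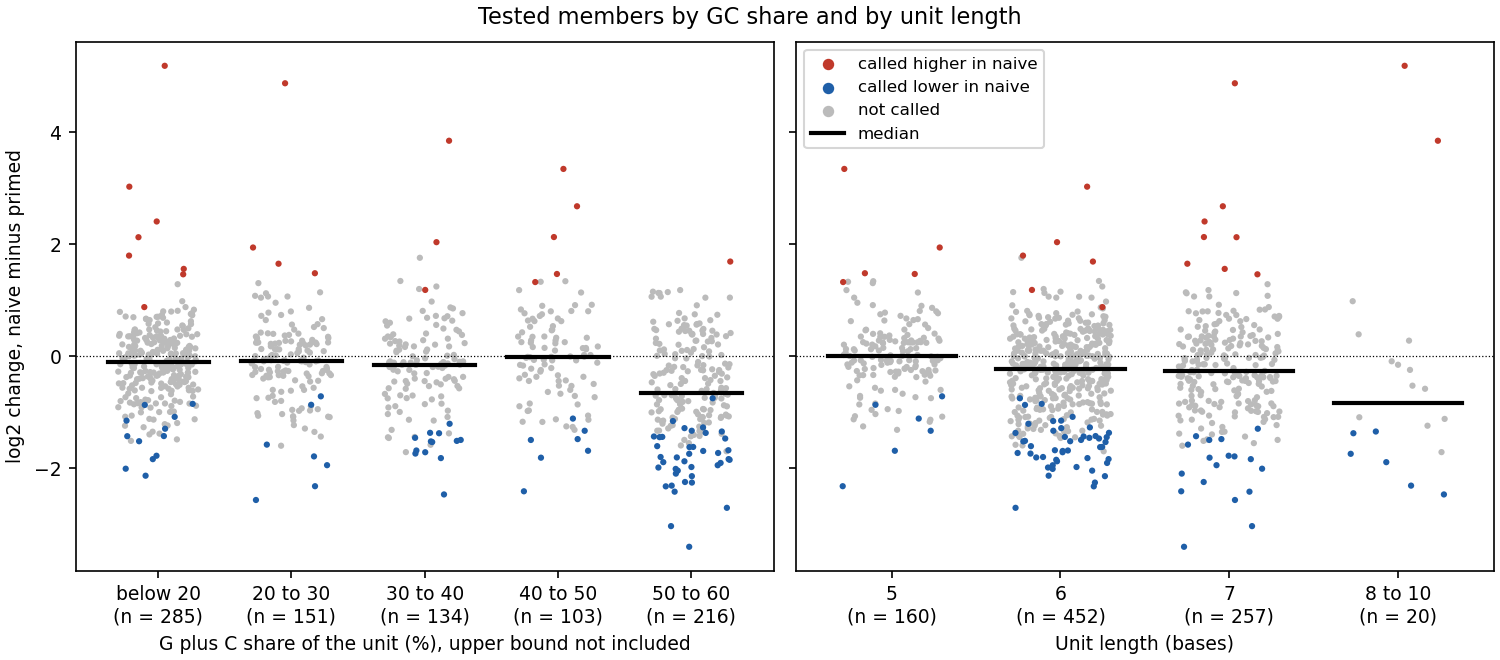
Each point is 1 of the 889 tested members, with its log2 change (naive minus primed) on the vertical axis and its GC bin (left) or unit length (right) on the horizontal axis; black bars are medians. The bin of 50% to below 60% GC has a median of -0.67 and 40 members called lower, and medians by length go from -0.0032 at 5 bases to -0.84 at 8 to 10 bases.

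By unit length, the medians differed less evenly. Units of 5 bases had 5 higher and 6 lower of 160 tested and a median of -0.0032. Units of 6 bases had 6 higher and 49 lower of 452 (median -0.22), units of 7 bases 8 higher and 18 lower of 257 (-0.26), and units of 8 to 10 bases 2 higher and 6 lower of 20 (-0.84). The last group was uneven: 11 units of 8 bases had 2 higher and 1 lower (-0.16), and 7 units of 9 bases 0 higher and 5 lower (-1.38), 4 of these 5 with overlapping groups. None of the 5 was called without primed library 1. None of 106 members with 11 to 13 bases passed the filter. Length and GC are tied by arithmetic, since a unit of 5 bases has 20% or 40% GC here and only longer units can reach the top bin. Within the top bin, the medians were -0.68 for 168 units of 6 bases and -0.42 for 42 units of 7 bases. Within the lowest bin they were -0.07 for 158 units of 6 bases and -0.15 for 123 units of 7 bases, and the 4 units of 8 to 10 bases there had 1 higher, 0 lower and a median of 0.63. Units with a length that is a multiple of 3 had 54 of 459 lower (11.8%) and 6 higher, and the others 25 of 430 (5.81%) and 15. In the top GC bin these counts were 34 lower and 1 higher of 171, and 6 lower and 0 higher of 45. Of the 459 units, 452 had 6 bases, and of the 171, 168 did. This split is thus mostly that of units of 6 bases against the other lengths.

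Summed counts per GC bin did not separate the states as the median member did. In every library all members of a GC bin were added up, tested or not, and set against the member total. The top bin took 19.4%, 20.8% and 30.1% across the naive and 27.6%, 18.2% and 24.7% across the primed libraries. These groups overlapped widely. Naive library 3 stood out through (GAGAGA)n, an array of the GA dinucleotide, which had 941, 2376 and 8153 counts across the naive and 1479, 1 and 1683 across the primed libraries. Its groups overlapped, with a log2 change of 1.04 that was not called (edgeR adjusted p = 0.246). Naive library 3 is also the library with the lowest ribosomal RNA share, and whether this goes with the (GAGAGA)n counts was not tested. The log2 ratio of counts in the top bin to counts in the lowest bin was -0.20 ± 0.56 (naive) against -0.22 ± 0.38 (primed) (SD, n = 3), and without (GAGAGA)n the naive mean was lower than the primed mean by 0.21, with overlapping groups. Without the 10 most abundant members, a choice made after seeing the data, the naive mean was lower by 0.18, again with overlap. The bin from 40% to below 50% was the single one whose shares did not overlap, with 11.6% ± 0.584 (naive) against 10.4% ± 0.594 (primed) (SD, n = 3).

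**Figure D4:**
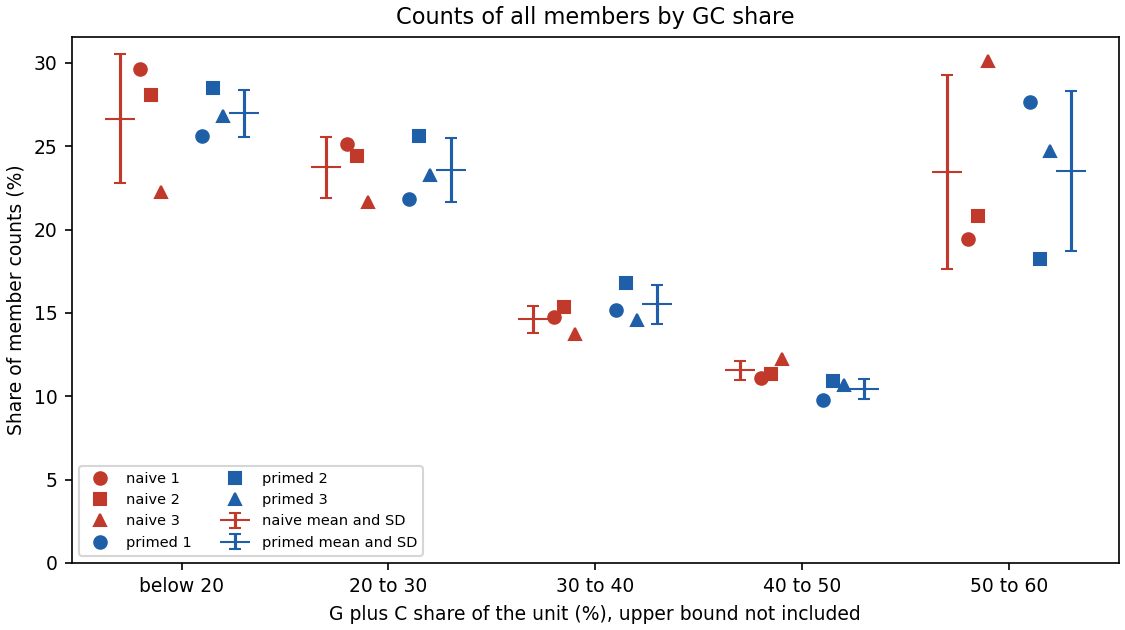
Points give, for each library, the share of all member counts in each GC bin, and crosses with bars give the mean and SD of the 3 libraries of a state. Naive library 3, at 30.1%, stands above the other naive libraries in the bin from 50% to below 60%, and the states overlap in all bins except that from 40% to below 50%.

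Among the most abundant members of the top bin, (AGCAGT)n was lower in naive cells. Of the 2 tested names of its class, ACTGCT, only this 1 lay below 0, and their median was -0.35. It had 284, 310 and 342 counts across the naive and 1165, 12 and 678 across the primed libraries, although the naive libraries are deeper. Scaled, this was 28.03 ± 4.16 CPM (naive) against 94.01 ± 46.2 CPM (primed) (SD, n = 3), and the groups did not overlap. The fitted log2 change was -1.85 ± 0.28 (SE; edgeR adjusted p = 0.00705), or 3.61-fold lower, and it kept its call in each of the 6 fits without 1 library, with -1.28 (edgeR adjusted p = 0.0209) without primed library 1.

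The AAGAGG class, purine-only on one strand and pyrimidine-only on the other, had 4 of 9 tested names lower. Its (GAAGAG)n had 57, 53 and 54 counts across the naive and 403, 3 and 180 across the primed libraries. This made 5.01 ± 1.37 CPM against 28.6 ± 19.4 CPM (SD, n = 3) with no overlap, and a log2 change of -2.71 ± 0.40 (SE; edgeR adjusted p = 0.00705). The call held whichever library was left out. The name (CTTCCT)n followed with -1.33 (edgeR adjusted p = 0.0114), then (CCTCTT)n with -1.29 (edgeR adjusted p = 0.0178) and (TCTTCC)n with -0.75 (edgeR adjusted p = 0.0367), all 3 pyrimidine-only. The groups overlapped for (CTTCCT)n and (CCTCTT)n but not for (TCTTCC)n. These 3 calls were lost without primed library 1, and that of (TCTTCC)n also without naive library 2 or naive library 3. The 5 names without a call lay between -1.21 and -0.26. All 9 were thus below 0.

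The AGGATG class had 6 of 10 tested names lower, the most of any class, and all 10 below 0. On one strand (CTCATC)n had a log2 change of -2.05, while the called name (CCTCAT)n stood at -1.61 and the best filled name (TCATCC)n at -1.47. On the reverse complement (ATGAGG)n had a log2 change of -1.98, while the called name (GAGGAT)n stood at -1.80 and the remaining called name (TGAGGA)n at -1.16. That best filled name had 156, 145 and 197 counts across the naive and 467, 0 and 336 across the primed libraries (edgeR adjusted p = 0.0302). Primed library 2, with 0 counts, thus lay below the naive group, while the other primed libraries lay above it. All 6 calls were lost without primed library 1, with log2 changes from -1.34 to -0.94 for these 6. The calls of (GAGGAT)n and the name (TGAGGA)n were also lost without naive library 2 or naive library 3, and that of (TCATCC)n without naive library 2. Both classes were singled out after their counts of calls were seen.

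With all names of a class added up, 446 classes that hold members were tested beside the other entries, which gave 5 classes higher and 40 lower. In that fit 3.32% of all entries were higher and 6.45% lower, against 1.12% and 8.97% of these classes. The top GC bin again held most of the lower calls, 22 of 115 classes with a median of -0.57, while 3 of 102 were lower below 20% GC. Of 42 classes of 5 bases, 0 were called by edgeR, and 12 passed at an unadjusted p under 0.05. The AGGATG class had 545, 508 and 650 counts across the naive and 1387, 7 and 952 across the primed libraries, with a log2 change of -1.35 ± 0.33 (SE; edgeR adjusted p = 0.0428). Its scaled primed mean of 107 ± 71.5 CPM (SD, n = 3) shows how unlike the primed libraries were. The AAGAGG class gave -1.13 ± 0.22 (edgeR adjusted p = 0.0301) and the AAGATG class -1.11 ± 0.24 (edgeR adjusted p = 0.0339). The class calls were few in the fits without primed library 1 (0 higher and 1 lower), naive library 2 (0 and 1) or naive library 3 (2 and 0).

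Falls of similar or larger size occurred in other units, some of them with few counts. The nonamer (TTGAAGACA)n, the single name of its class in the table, had 79, 35 and 55 counts across the naive and 368, 0 and 183 across the primed libraries (log2 change -2.47 ± 0.53, SE; edgeR adjusted p = 0.0189). Its primed library 2, with 0 counts, lay below all 3 naive libraries, while the other primed libraries lay above them. The octamer (GAGAAGCA)n had 99, 71 and 89 naive and 523, 3 and 183 primed counts, with no overlap after scaling (log2 -2.31 ± 0.46; edgeR adjusted p = 0.0148). For (GCATTGG)n, with a run of 3 G across the joint between units, the counts were 108, 78 and 133 in naive and 496, 4 and 237 in primed libraries (log2 change -2.10 ± 0.37; edgeR adjusted p = 0.0106), and the groups did not overlap. All 3 calls were lost without primed library 1 (-1.62, -1.20 and -1.31). The largest fitted fall was that of (GGCTGAT)n (log2 -3.41 ± 0.58; edgeR adjusted p = 0.00959), which rests on 1, 1 and 2 naive counts and 12, 1 and 11 primed counts. (CACATGG)n, with 3, 1 and 4 naive and 21, 1 and 13 primed counts, was similarly thin (log2 -3.04). Both passed the filter through the primed libraries only, so they had to differ to be tested, and their values are a description.

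The 21 members higher in naive cells had lower GC shares and came one to a class, apart from 2 names of the satellite class. Their units had 12.5% to 50% GC. The other names of these classes did not follow them: of 59 tested, 36 lay below 0, with a median of -0.12, and 4 were called lower. The best supported by counts outside the satellite class was (TTTTGC)n, chosen after its values were seen, with 297, 537 and 449 counts across the naive and 139, 2 and 165 across the primed libraries. This was 37.8 ± 9.01 against 15.1 ± 3.41 CPM (SD, n = 3), with no overlap and a log2 change of 1.18 ± 0.23 (SE; edgeR adjusted p = 0.0141). Scaled by library size only, its log2 change was 0.57 and did not pass (edgeR adjusted p = 0.170). (CTTTTA)n had 32, 94 and 80 naive and 6, 0 and 7 primed counts (log2 3.02 ± 0.50; edgeR adjusted p = 0.00959), and was among the 15 members that passed the filter through the naive libraries only. The call of (TTTTGC)n was lost without primed library 1 (edgeR adjusted p = 0.0804), and so was that of (CTTTTA)n (3.09, 0.0787).

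The largest rises were near the detection limit in primed cells. (TCTAATAA)n had 35, 25 and 21 counts across the naive and 0, 0 and 1 across the primed libraries. Divided by the TMM-scaled totals, the naive rate was 42.9 times the primed rate (95% exact counting interval 7.49 to 1716). (CACTTAT)n, with 20, 28 and 19 naive and 0, 0 and 1 primed counts, gave 35.5 (6.16 to 1423). Both were called (edgeR adjusted p = 0.00959 each), and both lost the call without primed library 1 (0.0929 and 0.0900). Both passed the filter through the naive libraries only, so they had to differ to be tested, and their values are a description. Further rises with at most 17 counts in any primed library were those of (GAAAG)n (log2 change 3.34), (GAGAGAT)n (2.67), (TTAATTC)n (2.40), (CTTCTTC)n (2.13), (AGTATAA)n (2.12), (TATCTC)n (2.03) and (TTGAT)n (1.94) (edgeR adjusted p between 0.0133 and 0.0428), and these 7 calls were also lost without primed library 1. Of them, (GAAAG)n, then (GAGAGAT)n and (AGTATAA)n, and also (TATCTC)n passed the filter through the naive libraries only. The call of (CTTCTTC)n was also lost without naive library 2, that of (TATCTC)n without naive library 2 and also without primed library 3. The call of (AGTATAA)n ended without any 1 of the 3 primed libraries.

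In the satellite class the names split by orientation. Orientation is that of the name and not of a transcript, since the sources used here do not say whether counting used the strand. All 5 names in the GGAAT orientation lay between 0.75 and 1.47 on the log2 scale, and of the 5 in the ATTCC orientation 4 lay between -0.73 and 0.28 and 1, (TTCCA)n, at 0.90. Calls were made for (AATGG)n (1.32 ± 0.24, SE; edgeR adjusted p = 0.0121) and (GGAAT)n (1.47 ± 0.44; edgeR adjusted p = 0.0485), 2 of 10 tested against the 4.94% of all entries. (AATGG)n had 160, 230 and 326 counts across the naive and 65, 1 and 85 across the primed libraries, with no overlap after scaling. Its mirror name, the reverse complement (CCATT)n, had 14, 19 and 33 naive and 16, 0 and 15 primed counts (log2 0.15, edgeR adjusted p = 0.831). (GGAAT)n had 24, 28 and 60 naive and 8, 0 and 13 primed counts, and its reverse complement (ATTCC)n had 97, 167 and 169 naive and 165, 8 and 171 primed counts (log2 -0.73, edgeR adjusted p = 0.113). Summed over an orientation, the 5 GGAAT names had 466, 663 and 1160 counts across the naive and 202, 5 and 339 across the primed libraries. The 5 ATTCC names had 314, 537 and 694, and 311, 9 and 439.

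The ratio of the 2 orientations within a library needs no scaling between libraries. It was 1.48, 1.23 and 1.67 across the naive and 0.650, 0.556 and 0.772 across the primed libraries. The GGAAT orientation was thus in excess in each naive library and in deficit in each primed one. The difference of the mean log2 ratios was 1.15, with a range of 1.04 to 1.27 over the 6 ways of leaving out 1 library. The split was chosen after its values were seen and was given no test. With all libraries thinned to the total of primed library 2, where the class holds few counts, the difference was 0.12. Both orientations together did not pass (class log2 0.50 ± 0.17, edgeR adjusted p = 0.0898), and with library size alone the class stood at -0.04. The calls of (AATGG)n and (GGAAT)n were lost without primed library 1 (1.31, 0.0804 and 1.33, 0.312), and that of (GGAAT)n also in each other fit without 1 library except that without naive library 1. Both calls also ended with library size as the only scaling (0.74, edgeR adjusted p = 0.121, and 0.91, edgeR adjusted p = 0.186).

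The counts of calls in the other lists of known or patterned units stand beside the 4.94% higher and 7.77% lower of all entries, and rest on few members each. Telomere units were scarce: (TTAGGG)n had 0, 0 and 0 counts across the naive and 0, 0 and 1 across the primed libraries, and (CCCTAA)n had 6, 3 and 10 and 9, 0 and 13. Of the 12 names of this class, only (CCTAAC)n passed the filter, with 11, 10 and 22 naive and 5, 0 and 19 primed counts (log2 -0.04, edgeR adjusted p = 0.969), a value that is not distinguishable from a sizeable change in either direction at this depth (it ranged from -0.61 to 1.001 over the alternatives). Summed over the class, the naive mean of the telomere unit was 6.21 ± 0.535 CPM and the primed mean 6.12 ± 1.42 CPM (SD, n = 3; edgeR adjusted p = 0.9997).

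Of the 8 tested names of the ATTCT class, 0 were called by edgeR or DESeq2, 1 passed at an unadjusted p under 0.05, and the median was 0.25. The TTTCA class had 1 of 9 lower, (ATGAA)n (log2 -0.87, edgeR adjusted p = 0.0361), a call that 3 of the 6 fits without 1 library no longer made (those without naive 2, naive 3 and primed 1). The AAAAG and AAAGG classes had 1 of 18 higher, (GAAAG)n, and a median of -0.0048. That name passed the filter through the naive libraries only, so it had to differ to be tested, and its call was lost without primed library 1. For alternating purine and pyrimidine units, of the kind that can take the Z form of DNA, 0 of 46 were called by edgeR or DESeq2, 6 passed at an unadjusted p under 0.05, and the median was 0.06. Units with CpG seldom had enough counts to test: 4 of 271 passed the filter, and all 4 were below 0, with 1 lower, (TCATCG)n (log2 -1.62, edgeR adjusted p = 0.0302). Units of purines only or of pyrimidines only had 2 higher and 7 lower of 132 and a median of -0.13. Units with a run of 3 or more G or C had 0 higher and 3 lower of 30 and a median of -0.09.

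Units of A or of T with a single other base were among the most abundant members. Among A-rich units 2 of 26 were lower (7.69%, near the 7.77% of all entries tested) and 0 higher by edgeR. At an unadjusted p under 0.05, 0 of them were higher, and their median was -0.26. Among T-rich units 1 of 36 was higher (2.78%, against 4.94% of all entries) and 4 lower (11.1%), with a median of -0.25. The most abundant of these, (AAAAC)n, had 1144, 1245 and 1373 counts across the naive and 1362, 12 and 1318 across the primed libraries, and did not pass (log2 -0.28, edgeR adjusted p = 0.420). (TTTTG)n, with 1055, 1216 and 1349 naive and 1005, 19 and 1141 primed counts, gave -0.13 (0.562), and (GTTTT)n gave -0.29 (0.251). (AACAA)n had 562, 573 and 782 naive and 930, 13 and 765 primed counts and was lower by 1.65-fold (log2 -0.72 ± 0.19, SE; edgeR adjusted p = 0.0331), with no overlap after scaling. (TTTTTG)n and (CTTTTT)n were lower too (log2 -0.87 and -0.85; edgeR adjusted p = 0.0391 and 0.0443). These 3 calls were lost without primed library 1, naive library 2 or naive library 3, and that of (CTTTTT)n also without primed library 2.

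Within a library the T-rich and pyrimidine-only names outweighed their mirror images in both states. Only names whose reverse complement is also in the table were compared, 42 on each side for A-rich and T-rich units and 126 on each side for purine-only and pyrimidine-only units. T-rich names had a log2 excess over A-rich names of 1.41, 1.46 and 1.39 across the naive and of 1.30, 1.67 and 1.38 across the primed libraries, with a mean of 1.43. Pyrimidine-only names had a log2 excess over purine-only names of 2.29, 1.64 and 0.46 in naive and 2.09, 3.65 and 1.95 in primed libraries. The mean was 4.04-fold. With (GAGAGA)n alone left out, a choice made after seeing the data, the excess was 3.29, 3.25 and 3.22 in naive libraries. In primed libraries it was then 3.16, 3.75 and 3.21. The mirror name (TCTCTC)n stayed in, so the sides were no longer matched, and this raises the mean of 9.93-fold. The states overlapped in both ratios. The sources used here do not give the number of genomic copies of each name or say whether counting used the strand.

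Mirror names did not always move together. Of 156 pairs of reverse complements in which both were tested, 54 had both changes below 0, 30 both above 0 and 72 one of each sign, with a median absolute difference of 0.51 on the log2 scale. Among all 889 tested members, 537 lay below 0 and 352 above 0, and whether mirror names share a sign beyond this was not tested. Both names were called in 2 pairs and 1 of the 2 names in 27. Of the 79 lower members, 27 had a tested reverse complement, which lay below 0 for 23 and was itself lower for 4. Of the 21 higher members, 4 had one, above 0 for 3 and called higher for 0.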

How the data were processed

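Chromatin-bound RNA of H9 cells was counted over repeat names in 3 naive and 3 primed libraries. The submitters' processing notes name Trimmomatic 0.39, STAR 2.7.8a, featureCounts and Subread 2.14.2. The sources used here do not give the build, repeat annotation, strand use or multi-mapping rule, so reads may have moved between alike names. The deposited values are whole-number counts, 1 row per repeat name and not normalised as far as the values show; no coordinates were used. Columns were matched to samples by title and groups come from the treatment label.

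The test was edgeR 4.0.16 (R 4.3.3): TMM factors, filterByExpr by group, and the quasi-likelihood test of naive against primed, with Benjamini-Hochberg adjustment over all 3219 entries tested. The standard error is the log2 change divided by the square root of F. CPM values with an SD are TMM-scaled. Class sums over rotations and reverse complements of a unit were fitted in the same way. In counts simulated for this comparison (3116 entries tested), the fit recovered 51.6% of the changes set at 2-fold, and 95.9% at 4-fold. The changed entries were drawn from all entries, with a spread set by abundance alone. Members were rarer, with a median of 2.62 CPM against 8.13 for all entries tested, so these shares need not hold for members. Members, lists and tests were chosen with earlier results of these data known. Named members are the 10 largest called changes in each direction (mean CPM of at least 1), the 10 most abundant, the 2 most abundant of each bin and list, and 6 satellite and telomere units; the text gives some of them, and others where said. Alternatives were other scalings and filters, DESeq2 1.42.0, glmTreat, thinning, a replicate block and each library left out; 3 ways of leaving out members from ratios were added after seeing the data. Figures were drawn with matplotlib 3.10.9. Some tested members are not reported here.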

Additional observations from a re-analysis of the deposited data

How the results depend on the processing

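The 21 higher and 79 lower members became 11 and 290 with library size only, 66 higher with simple repeats only, 3 and 41 with DESeq2, 92 and 210 with no filter, and 0 and 0 both in edgeR's glmTreat against a log2 change of 1 (80 at an unadjusted p under 0.05) and with all libraries thinned to the shallowest (2 of 7 tested). Leaving out 1 library gave 0 to 27 higher and 2 to 153 lower members, and 0 to 5 higher and 0 to 50 lower classes, the lowest without primed library 1, naive library 2 or naive library 3. The 5 higher and 40 lower classes became 3 and 145 with library size only. The replicate numbers are not shown to pair the libraries (correlations of same-numbered deviations 0.146, 0.0867 and 0.0659, each the highest for its library). With the replicate block, 23 members were higher and 114 lower, and 3 classes were higher. The naive minus primed difference in the members' share of counts was -0.40 percentage points, -0.215 without alpha satellite and ribosomal RNA, and 0.981 among simple repeats only. Among members without a call, direction reversed for (AAAAC)n (0.20), (GTTTT)n (0.14), (TTTTG)n (0.30) and (CCTAAC)n (0.29) with simple repeats only, for (TTTTG)n when thinned (0.0055), for (CCATT)n with library size only (-0.41) and without naive library 3 (-0.02) or primed library 3 (-0.0293), and for (CCTAAC)n with the replicate block (0.20) and without naive library 2 (0.18) or primed library 3 (1.001). Reversed sums without a call were the (AATGG)n class with library size only (-0.039), the (AGAGAG)n class without naive library 3 (-0.042) and the (AACCCT)n class, at 0.00026, with RLE factors (-0.00662), library size only (-0.51), the replicate block (-0.00648), and without naive library 2 (-0.0184), naive library 3 (-0.0215), primed library 1 (-0.27) or primed library 2 (-4.31e-05). Over the 6 fits without 1 library, (CCATT)n ranged from -0.03 to 0.39, (CCTAAC)n from -0.54 to 1.001, the (AACCCT)n class from -0.27 to 0.36 and the (AGAGAG)n class from -0.04 to 1.19. The cause was not tested. The depth of primed library 2 limits every member with few counts.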
